A study of Oryctolagus cuniculus with 27 samples.

Results

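The genes described here are 10 transcription factors of heart and valve development: OSR1, RARB, TBX20, TBX5, GATA4, GATA6, NFATC1, HAND2, TCF21 and MEOX1. They were taken by name, not by a measured value, from the full count tables of rabbit aortic valve, ascending aorta and left ventricular myocardium, in which 31346 genes are listed. The names were chosen with earlier results of these data known, so the list is not independent of the data. All 10 had a row in the tables. Of these, 9 were listed under their symbol and NFATC1 as LOC100352378, which the RefSeq gene table pairs with that name.

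RNA of 27 libraries from 21 male wild-type New Zealand rabbits was sequenced. The animals ate an experimental diet, with cholesterol at 1% and ergocalciferol (a form of vitamin D) at 3500 IU, which the design text gives per kg and day, or normal chow. Valves came from animals after 2, 4 and 7 weeks of the diet and from controls on chow, with 4 libraries in each group. Aortas came from 2 diet and 3 control animals and myocardium from 3 diet and 3 control animals, for which the labels give no duration. Each valve library was made from a single dissected cusp, per the labels' protocols. For the control valves the sources disagree on age: the design text pools controls of 2 and 4 weeks, but by their titles 3 libraries are of 7 weeks and 1 is of 2 weeks. The library names place 6 animals in 2 libraries each: 7-week valves share their animal with the 3 diet myocardium libraries, control valves with 2 of the control myocardium libraries, and a 2-week valve with 1 diet aorta. The other diet aorta comes from an animal with no valve library.

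These factors are known from the embryonic heart. T-box factors (TBX5, TBX20) and zinc-finger GATA factors (GATA4, GATA6) act with the basic helix-loop-helix factor HAND2 in cardiac muscle and in the cushions from which valves form. NFATC1 is activated by the phosphatase calcineurin and is required in the endocardium for valve growth. OSR1 marks mesenchyme and the posterior second heart field, RARB is a retinoic acid receptor whose own gene responds to retinoic acid, TCF21 marks epicardial and fibroblast lineages, and MEOX1 is a homeobox factor of mesoderm and activated fibroblasts.

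Library totals ran from 8.46 to 19.999 M counts in valve, 11.5 to 16.1 M in aorta and 13.95 to 17.3 M in myocardium. Levels are given as CPM, the counts of a gene scaled to its library total. They are compared between libraries for 1 gene, not between genes, since no gene length was used. Log2 differences come from fits that scale each library by a further factor (TMM), so they can depart from ratios of CPM. The tissue labels were set against marker genes in control libraries. Of 10 interstitial and fibroblast markers, 10 were higher in valve than in myocardium, and of 7 smooth muscle markers 6 were higher in aorta than in myocardium. The 10 ventricular muscle markers took a mean of 9.80% of counts in diet myocardium and 9.15% in control myocardium. They also took 2.02% ± 1.62 (SD, n = 4) in 7-week valves and 2.02% ± 1.15 in control valves, 0.691% ± 0.325 in 4-week valves and 0.217% ± 0.109 in 2-week valves. In bulk tissue, fewer cells of a type and less RNA per cell cannot be told apart, here and in every comparison below.

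**Figure D1:**
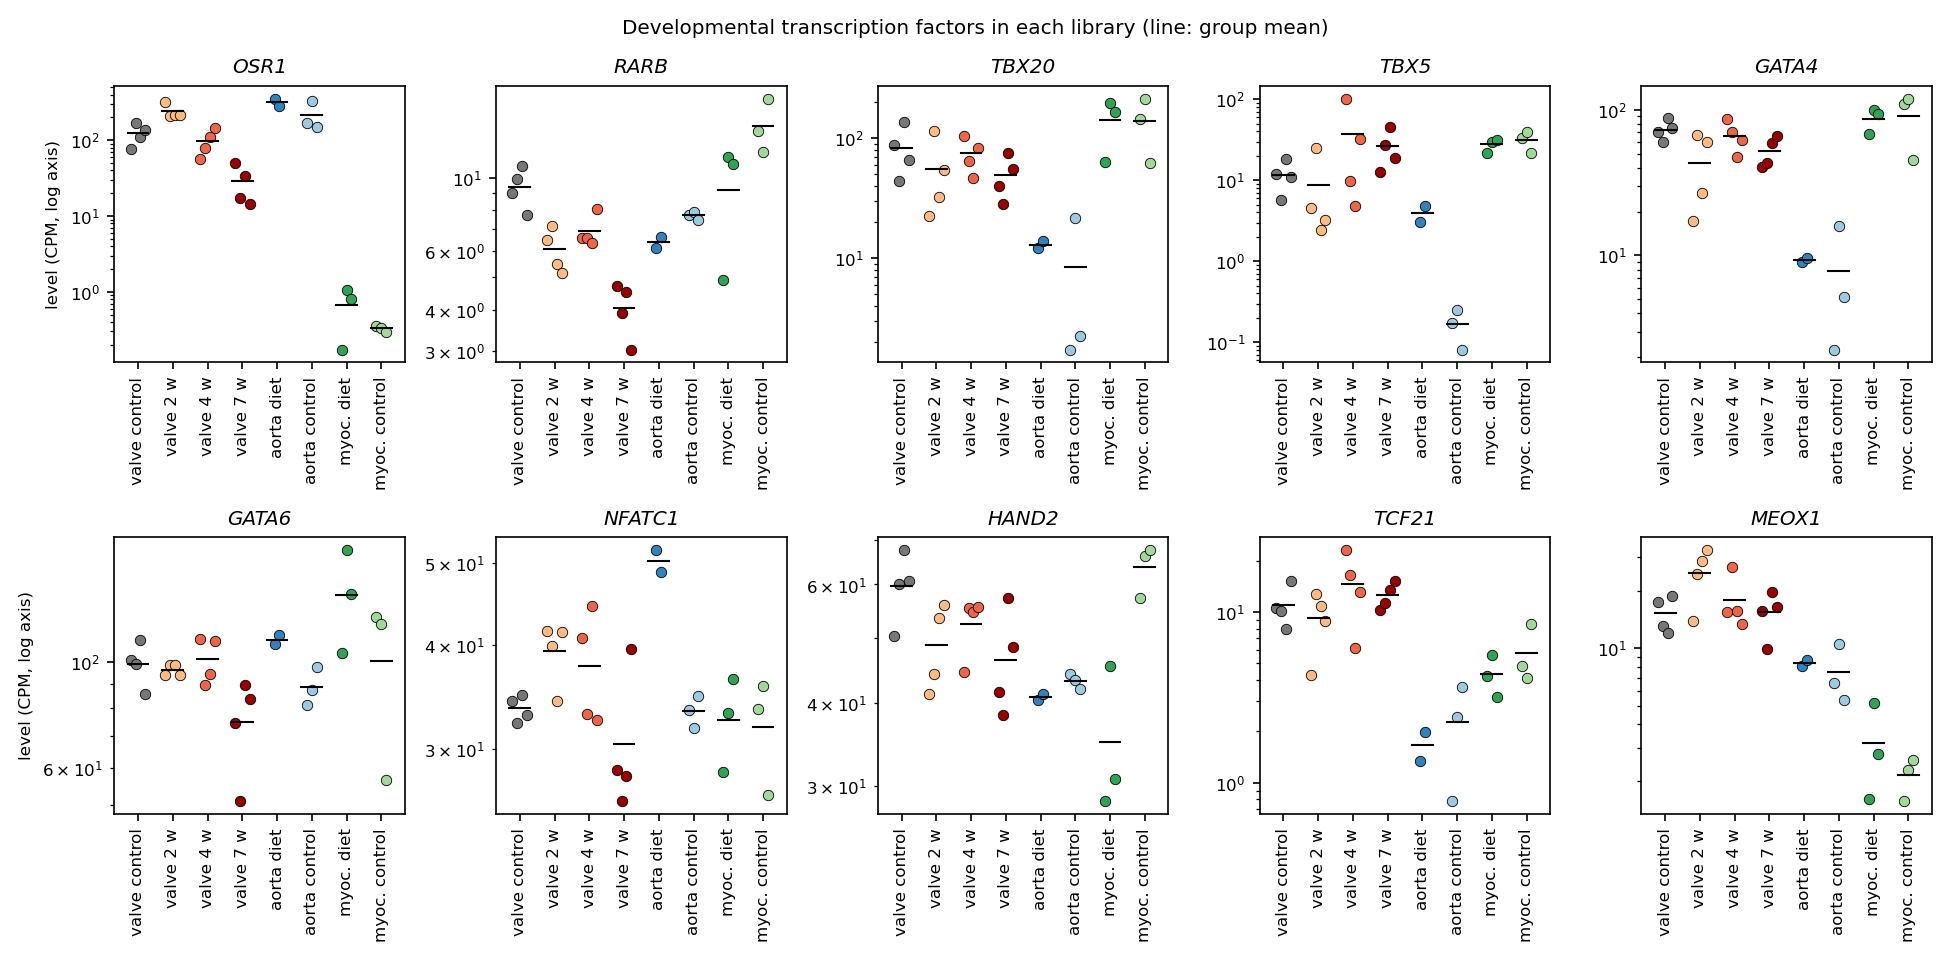
Level of each of the 10 factors in every library, as CPM on a logarithmic axis of its own per gene, with groups along the horizontal axis and a line at each group mean. OSR1 lay between 14.4 and 49.8 CPM in 7-week valves and between 77.5 and 168 CPM in control valves, and near 0 in myocardium.

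Levels of some of these factors differed between the tissues of control animals. OSR1 and MEOX1 were higher in valve and in aorta than in myocardium, whereas TBX5, TBX20, GATA4 and TCF21 were lower in aorta than in either of the other tissues. Control valve stood above control aorta at 5 of 10 factors and below it at 0 (edgeR's quasi-likelihood test, Benjamini-Hochberg adjusted over all genes, threshold 0.05), where 23.8% of all genes tested passed. Control valve against control myocardium gave 2 higher and 2 lower factors, where 44.8% of genes passed, so this count is near the share of all genes. Control aorta against control myocardium gave 2 higher and 6 lower, where 51.8% passed. These 3 comparisons share their libraries, and 2 control valves share their animals with 2 control myocardium libraries. Some valve library names repeat the sequencing number of an aorta or myocardium library. If valves had runs of their own, run and tissue cannot be told apart in the comparisons with valve. In a limma fit with the animal as a block, control valve stood above control aorta at 3 factors, and TBX5 and MEOX1 no longer passed. No control valve shares its animal with a control aorta. That fit also replaces the edgeR test, so the part of the block in these losses was not tested.

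OSR1, the mesenchymal zinc-finger factor, had 77.5, 168, 112 and 138 CPM in control valves and 0.358, 0.336 and 0.294 CPM in control myocardium. The myocardial level rests on 5 counts in each of the 3 libraries. The ratio of the summed counts was 382, with a 95% exact interval of 231 to 682 that covers counting error only. Control aortas had 170.1, 334 and 150.3 CPM. The range of the valves overlapped that of the aortas, and the log2 difference of valve over aorta was -0.95 ± 0.37 (SE; adjusted p = 0.0644). In a fit of control libraries alone the difference passed (adjusted p = 0.0469). From high to low, the mean level of OSR1 ran from diet aorta, 2-week valve, control aorta, control valve, 4-week valve and 7-week valve to diet and then control myocardium. Diet aorta, 2-week valve and control aorta overlapped in that order, and so did control aorta with control valve and control valve with 4-week valve.

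MEOX1, the homeobox factor, was also lowest in myocardium, but its level was higher in valve than in aorta. It had 17.6, 13.1, 12.1 and 18.9 CPM in control valves, 6.60, 10.5 and 5.35 CPM in control aortas and 1.58, 2.28 and 2.59 CPM in control myocardium, and none of the 3 groups overlapped. The log2 difference was 0.91 ± 0.32 for valve over aorta (adjusted p = 0.0401), 2.48 ± 0.35 for valve over myocardium (adjusted p = 6.16e-06) and 1.58 ± 0.36 for aorta over myocardium (adjusted p = 0.000729). The first of these no longer passed without control valve 1 or 4 or control aorta 1 or 3, where the log2 difference was 0.86, 0.75, 0.81 and 0.73 in that order. It also did not pass in the limma fit with the animal as a block (0.88 ± 0.33, adjusted p = 0.0591) or without the filter on low counts (adjusted p = 0.0573).

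The T-box factors stood apart in aorta. TBX5, which is required for septation and for conduction tissue, had 11.9, 5.63, 18.4 and 10.9 CPM in control valves, 0.174, 0.248 and 0.0810 CPM in control aortas and 32.7, 39.8 and 21.6 CPM in control myocardium. The aortic level rests on 2, 4 and 1 counts, so the fold is uncertain: summed counts gave a ratio of valve to aorta of 65.5, with an exact interval of 31.6 to 164. The test gave a log2 difference of 5.90 ± 1.25 for valve over aorta (adjusted p = 0.00198) and -1.79 ± 0.77 for valve over myocardium (adjusted p = 0.0601). In the limma fit with the animal as a block, valve over aorta no longer passed (5.53 ± 2.35, adjusted p = 0.0961), while valve over myocardium did (-1.97 ± 0.71, adjusted p = 0.0258). All 4 control valves lay below all 3 control myocardium libraries, and that difference also passed without control valve 3 (-2.14, adjusted p = 0.0449), without control myocardium 3 (-2.11, adjusted p = 0.0480) and in a fit of control libraries alone (-1.80, adjusted p = 0.00417).

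TBX20, which acts in chamber and valve development, was lower in aorta too. It had 87.9, 43.7, 135 and 65.1 CPM in control valves, 1.74, 21.4 and 2.27 CPM in control aortas and 145, 213 and 61.5 CPM in control myocardium. The log2 difference of valve over aorta was 3.15 ± 0.73 (adjusted p = 0.00390) and of aorta over myocardium -4.29 ± 0.79 (adjusted p = 8.33e-05). Without control aorta 2 these were 5.26 and -6.40 in that order. Control aorta 2 held most of the aortic signal and control myocardium 3 the least of its group, and both stood apart in the same way for GATA4. GATA4 had 69.9, 60.1, 87.4 and 74.3 CPM in control valves, 2.26, 15.96 and 5.19 CPM in control aortas and 109, 119 and 45.1 CPM in control myocardium. All 4 valves lay above all 3 aortas, with a log2 difference of 3.08 ± 0.52 (adjusted p = 0.000407), and aorta over myocardium was -3.80 ± 0.55 (adjusted p = 4.89e-06). Without control aorta 2 these were 4.16 and -4.88 in that order. Without control myocardium 3, GATA4 was lower in valve than in myocardium (-1.14, adjusted p = 0.0495), and with it the value was -0.72.

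GATA6 and NFATC1 differed between no pair of tissues at the threshold. GATA6, a relative of GATA4 that is also active in smooth muscle, had 101, 98.8, 111 and 85.5 CPM in control valves, 81.1, 87.5 and 97.7 CPM in control aortas and 124, 120.3 and 56.4 CPM in control myocardium. Its log2 difference of valve over aorta was 0.02 ± 0.23 (adjusted p = 0.954). Without control myocardium 3, GATA6 was lower in valve than in myocardium (-0.81, adjusted p = 0.000675) and in aorta than in myocardium (-0.81, adjusted p = 0.000825). NFATC1 ranged from 32.3 to 34.8 CPM in control valves, 31.8 to 34.7 CPM in control aortas and 26.4 to 35.7 CPM in control myocardium. Without control myocardium 3, which was lowest, valve stood below myocardium at NFATC1 (-0.55, adjusted p = 0.0108), and with it the value was -0.31 ± 0.17 (adjusted p = 0.143). Over all control libraries, before TMM scaling, the ratio of mean CPM of valve to myocardium was 0.988 for GATA6 and 1.05 for NFATC1.

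RARB and HAND2 had their highest mean in myocardium. RARB had 8.97, 9.92, 10.9 and 7.72 CPM in control valves, 7.73, 7.88 and 7.46 CPM in control aortas and 13.8, 11.95 and 17.3 CPM in control myocardium. No control valve or aorta reached the lowest control myocardium library, with log2 differences of -0.97 ± 0.20 for valve over myocardium (adjusted p = 0.000554) and -1.12 ± 0.22 for aorta over myocardium (adjusted p = 0.000198). HAND2 had 50.2, 60.1, 67.5 and 60.8 CPM in control valves, 44.1, 43.1 and 41.9 CPM in control aortas and 57.3, 66.3 and 67.5 CPM in control myocardium. Aorta lay below myocardium without overlap (-0.80 ± 0.17 on the log2 scale, adjusted p = 0.000421). Valve over myocardium was -0.45 ± 0.16 (adjusted p = 0.0220), which no longer passed without control valve 1 (-0.36) or 2 (-0.41) or control myocardium 2 (-0.43). The CPM of HAND2 overlapped between these groups, with a ratio of means of 0.937. The TMM factors of the joint fit were 0.995 to 1.18 in control valves and 0.771 to 0.928 in control myocardium.

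TCF21, the epicardial and fibroblast factor, was lower in aorta than in valve. It had 10.5, 10.1, 7.92 and 15.1 CPM in control valves, 0.782, 2.42 and 3.65 CPM in control aortas and 4.80, 4.10 and 8.46 CPM in control myocardium. The log2 difference was 2.11 ± 0.47 for valve over aorta (adjusted p = 0.00273) and -1.53 ± 0.48 for aorta over myocardium (adjusted p = 0.0105), and without control aorta 1 the second was -1.12 (adjusted p = 0.0610). Ventricular muscle markers moved with these tissue differences: 10 of 10 were higher in control valve than in control aorta, at 0.809% to 3.56% of counts in valve and 0.0414% to 0.0651% in aorta. Their part in the differences of the muscle-expressed factors was not tested.

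**Figure D2:**
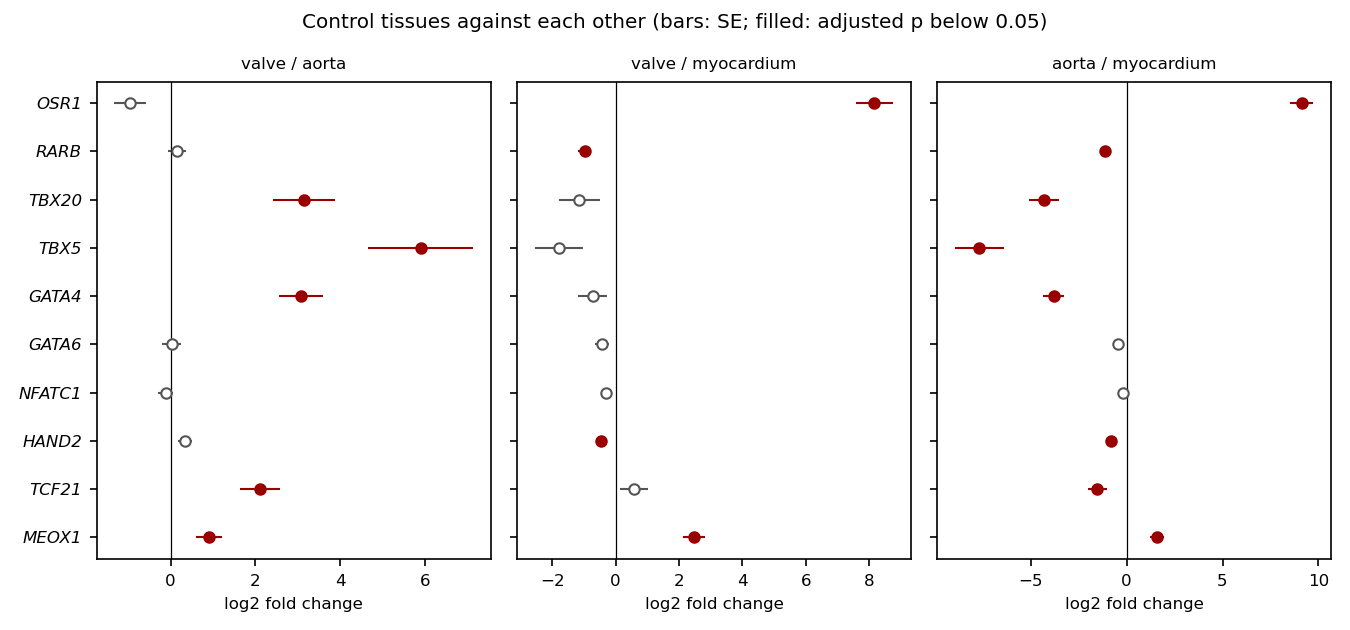
Log2 fold changes between control tissues for the 10 factors, with bars for the standard error and filled points for adjusted p below 0.05, in panels for valve over aorta, valve over myocardium and aorta over myocardium. TBX5, TBX20, GATA4, TCF21 and MEOX1 stand to the right of 0 in valve over aorta, and OSR1 stands at 8.17 and 9.12 against myocardium.

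In valves after 7 weeks of diet, OSR1 and RARB fell and the other 8 factors did not pass the test. OSR1 fell by 2.17 ± 0.36 on the log2 scale (adjusted p = 0.00633) and RARB by 1.24 ± 0.20 (adjusted p = 0.00630). The 2 of 10 factors compare with 7.79% of the 15973 genes tested, or 2.6% that were lower. The median log2 change of the 10 factors was -0.41, with 8 of 10 below 0, against -0.01 over all genes tested. The 3 comparisons of diet with control valves share the same 4 controls.

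OSR1 had 49.8, 17.3, 34.1 and 14.4 CPM in 7-week valves, against 77.5, 168, 112 and 138 CPM in control valves. In the earlier groups it had 321, 208, 218 and 214 CPM at 2 weeks and 56.6, 79.9, 109.5 and 146 CPM at 4 weeks. All 4 valves of 7 weeks lay below every other valve library, and all 4 of 2 weeks lay above every other. The 4-week valves lay within or below the range of the controls. The mean level was 240.4 ± 53.9 CPM at 2 weeks, 98.1 ± 38.7 CPM at 4 weeks and 28.9 ± 16.5 CPM at 7 weeks, with 124 ± 38.4 CPM in controls (SD, n = 4 each).

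Between diet durations, OSR1 fell by 3.12 ± 0.37 on the log2 scale at 7 weeks relative to 2 weeks (adjusted p = 0.000444), where 2 of 10 factors and 26.7% of all genes passed. It fell by 1.45 ± 0.35 at 4 weeks relative to 2 weeks (adjusted p = 0.0306), where 1 of 10 factors and 4.36% of genes passed. This second call was lost without 4-week valve 1, 2 or 3 or 2-week valve 1 or 3, with log2 changes of -1.27, -1.34, -1.47, -1.25 and -1.45 in that order. At 7 weeks relative to 4 weeks the change was -1.67 ± 0.35 (adjusted p = 0.0867), and without 7-week valve 1 it was -1.97 (adjusted p = 0.0420).

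RARB, the retinoic acid receptor, moved over a narrower range. It had 4.70, 3.90, 4.50 and 3.03 CPM in 7-week valves, against 8.97, 9.92, 10.9 and 7.72 CPM in control valves. The 2-week valves had 6.50, 7.17, 5.48 and 5.15 CPM and the 4-week valves 6.59, 6.58, 6.35 and 8.06 CPM. All 7-week valves lay below all other valves, and all 2-week valves below all controls. The counts behind these levels were 33 to 72 at 7 weeks and 95 to 155 in controls. The change was -0.65 ± 0.19 at 2 weeks (adjusted p = 0.105) and -0.60 ± 0.19 at 4 weeks (adjusted p = 0.142), both relative to controls. At 7 weeks relative to 2 weeks it fell by 0.59 ± 0.20 (adjusted p = 0.0393), a call that was lost without 7-week valve 3 or 4 or 2-week valve 1, 2 or 3, where the log2 change lay between -0.47 and -0.61.

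Other cell type markers moved in the same 7-week valves. Smooth muscle markers took 1.20% ± 0.306 of counts at 7 weeks and 2.42% ± 0.782 in controls, with 5 of 7 lower, after 3.76% at 2 weeks and 2.05% at 4 weeks. Macrophage markers took 0.0644% at 7 weeks and 0.0144% in controls, with 8 of 10 higher, and erythroid markers 0.722% at 7 weeks and 0.223% in controls, with 5 of 5 tested higher. The part of these markers in the fall of OSR1 and RARB was not tested. Ventricular markers did not differ at the threshold (0 of 10), and both calls held with the ventricular score in the fit. Atrial markers took 0.0449% to 0.488% of counts at 7 weeks and 0.000493% to 0.00141% in controls, with 4 of 5 higher, and their scores did not overlap between these groups. With the atrial score in the fit, OSR1 stood at -1.96 ± 0.59 (adjusted p = 0.130) and RARB at -1.51 ± 0.31 (adjusted p = 0.0547), and diet and score cannot be told apart in that fit. Both calls held when each of the 8 libraries of the comparison was left out in turn. The 7-week libraries carry the lowest sequencing numbers in the library names, and if they had a run of their own, run and group cannot be told apart.

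**Figure D3:**
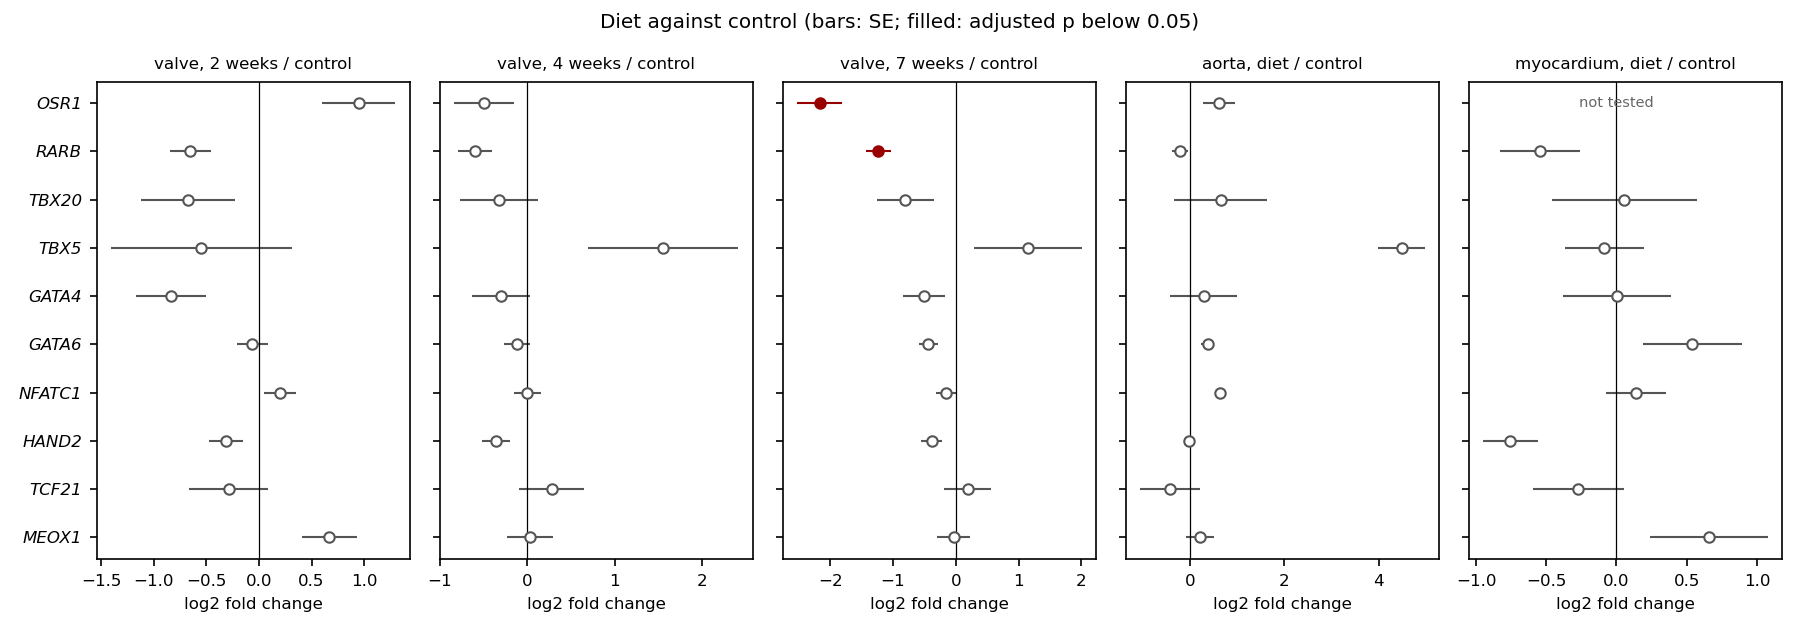
Log2 fold change of each factor under the diet relative to controls in valve at 2, 4 and 7 weeks, aorta and myocardium, with bars for the standard error, filled points for adjusted p below 0.05 and a scale of its own in each panel. The filled points are OSR1 at -2.17 and RARB at -1.24 in the 7-week valves, and OSR1 in myocardium was not tested because of its low counts.

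At 2 and 4 weeks the valves gave no factor past the threshold. With edgeR, 0 of 10 passed at 2 weeks, where 0.025% of all genes did, and 0 of 10 at 4 weeks, where 2% did. At an unadjusted p below 0.05 the counts were 4 of 10 at 2 weeks (16.4% of all genes) and 2 of 10 at 4 weeks (12.8%). DESeq2 called 1 (RARB) at 2 weeks, where it called 950 of 24179 genes, and 0 at 4 weeks, where it called 765. At 7 weeks relative to 4 weeks 0 of 10 passed, where 0.1% of genes did, with 3 of 10 at an unadjusted p below 0.05 (12%) and 1 (OSR1) by DESeq2.

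Among the muscle factors, TBX5 spread most between the valves of 1 group. It had 12.5, 27.4, 45.6 and 18.9 CPM at 7 weeks, 102, 9.81, 4.75 and 32.3 CPM at 4 weeks and 4.49, 24.8, 2.41 and 3.20 CPM at 2 weeks, against 11.9, 5.63, 18.4 and 10.9 CPM in control valves. Every diet group overlapped the controls. The log2 change was 1.14 ± 0.86 at 7 weeks (adjusted p = 0.418), 1.55 ± 0.86 at 4 weeks (adjusted p = 0.497) and -0.55 ± 0.86 at 2 weeks (adjusted p = 0.819). With the atrial muscle score in the fit, described below, the value was below 0 at all 3 times: -2.47 ± 0.61 at 7 weeks (adjusted p = 0.0827), -2.78 ± 0.67 at 4 weeks (adjusted p = 0.105) and -2.31 ± 0.46 at 2 weeks (adjusted p = 0.0148). With the ventricular score it was above 0 at all 3, at 1.65, 2.37 and 1.19 in the same order, and did not pass. With both scores TBX5 stood at -2.105 ± 0.48, -1.91 ± 0.54 and -0.85 ± 0.53 in the same order. None of these passed (adjusted p = 0.0830, 0.446 and 0.9999). Atrial scores of 4-week valves (4.77 to 9.63) and 7-week valves (5.35 to 8.77) did not overlap those of controls (0.929 to 1.60). At 2 weeks they spread from 0.203 to 5.90. Ventricular scores of 2-week valves (5.67 to 7.74) did not overlap those of controls (8.65 to 10.8). Where scores did not overlap, diet and score cannot be told apart. Without 2-week valve 2, the highest of its group, TBX5 was 2.94 higher on the log2 scale at 7 weeks than at 2 weeks (adjusted p = 0.0329), and with it the value was 1.69 ± 0.87 (adjusted p = 0.155).

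TBX5 followed the atrial muscle markers (NPPA, MYL4, MYL7, SLN and MYBPHL) within groups. Over the 16 valve libraries, after the mean of each group was taken out, its log2 level and the mean log2 level of these markers had a Pearson r of 0.896 (permutation p = 2e-05, two-sided, labels permuted within groups) and a Spearman rho of 0.935 (permutation p = 0.000250). Without the 2 libraries farthest from the median of the score r was 0.892. This was 1 of 50 relations computed between the 10 factors and 5 marker scores, with adjusted p = 0.001 for r and 0.0125 for rho, and no other of the 50 had an adjusted p below 0.05. The next was MEOX1 with the interstitial and fibroblast score (r = 0.768, permutation p = 0.00505, adjusted p = 0.126). The scores were of ventricular muscle, atrial muscle, macrophage, interstitial and fibroblast, and endothelial markers. Smooth muscle markers were not among them, so a relation of OSR1 or any other factor with these was not examined. The 4-week valve with 102 CPM of TBX5 also had the highest atrial score, 9.63, and the 2-week valve with 2.41 CPM the lowest, 0.203.

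**Figure D4:**
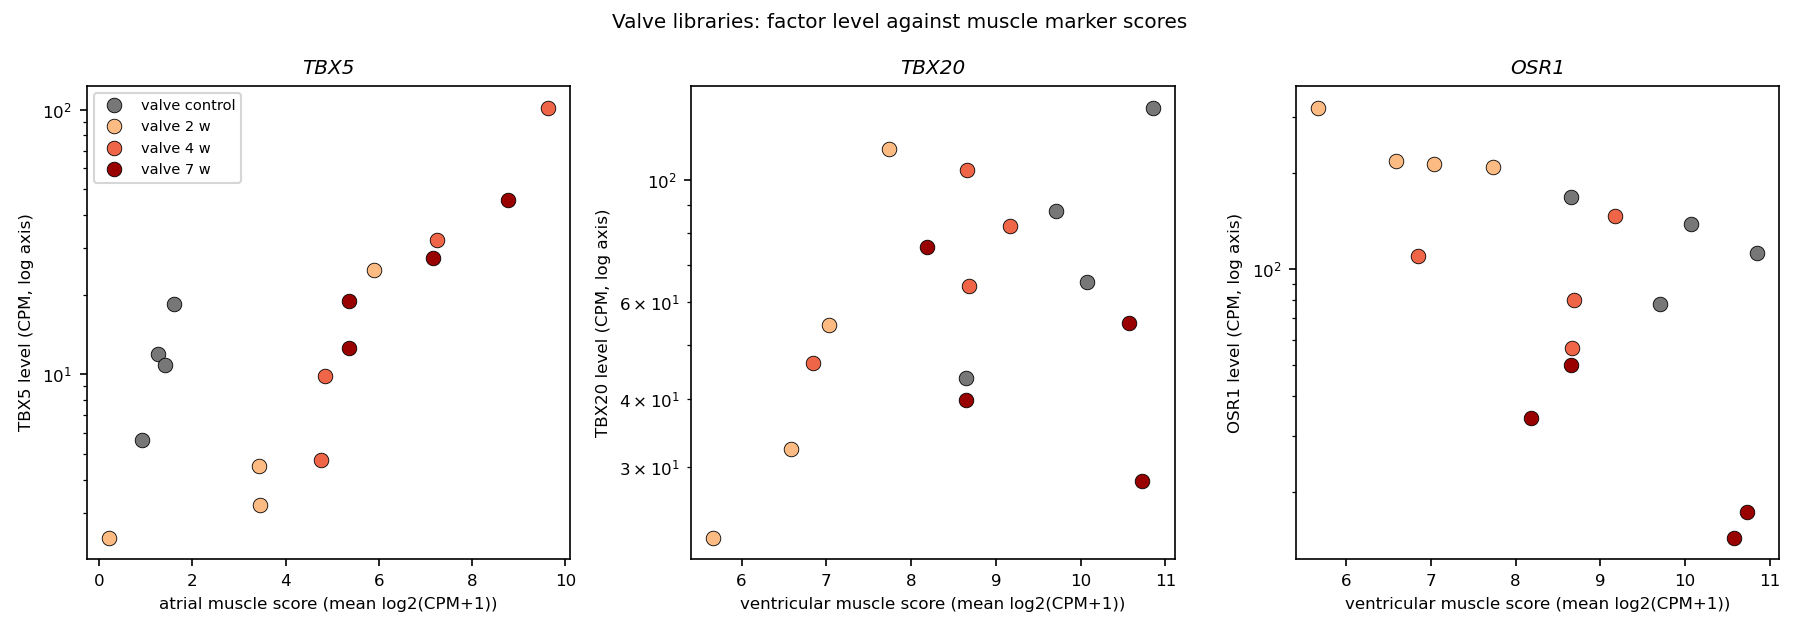
Level of TBX5 against the atrial muscle score and of TBX20 and OSR1 against the ventricular muscle score in the 16 valve libraries, with CPM on logarithmic axes and scores as the mean log2(CPM + 1) of the markers, coloured by group. TBX5 rises with the atrial score within the diet groups, and the 4 controls lie together at scores of 0.929 to 1.60.

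TBX20 and GATA4 lay lower in the diet valves on average, within their spread. TBX20 had 39.9, 28.4, 75.5 and 55.0 CPM in 7-week valves, 104, 64.2, 46.5 and 82.4 CPM in 4-week valves and 22.4, 114, 32.4 and 54.5 CPM in 2-week valves, against 87.9, 43.7, 135 and 65.1 CPM in controls. All groups overlapped, and the 7-week value was -0.80 ± 0.45 on the log2 scale (adjusted p = 0.278). GATA4 had 40.3, 43.3, 59.3 and 65.5 CPM in 7-week valves, 86.0, 70.3, 47.2 and 62.3 CPM in 4-week valves and 17.2, 67.4, 26.8 and 60.2 CPM in 2-week valves, against 69.9, 60.1, 87.4 and 74.3 CPM in controls. Its log2 change was -0.84 ± 0.33 at 2 weeks (adjusted p = 0.211) and -0.51 ± 0.33 at 7 weeks (adjusted p = 0.356). The 2-week valves were also those with the least ventricular muscle. With the ventricular score in the fit, GATA4 at 2 weeks stood at 0.16 ± 0.39 (adjusted p = 0.9998) and at 4 weeks at 0.22 ± 0.30 (adjusted p = 0.874), and TBX20 stood at 0.47 ± 0.61 and 0.29 ± 0.46, so that the sign of each turned relative to the fit without the score. At 7 weeks both stayed below 0, at -0.37 for GATA4 and -0.48 for TBX20. The ventricular scores of 2-week valves (5.67 to 7.74) did not overlap those of controls (8.65 to 10.8). Diet and score therefore cannot be told apart at 2 weeks, and the part of muscle in these changes was not tested. With the atrial score GATA4 passed at 2 weeks (-1.17 ± 0.33, adjusted p = 0.0497). With both scores it did not (-0.20 ± 0.37, adjusted p = 0.9999).

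GATA6 and HAND2 were nearest to the threshold of the remaining factors at 7 weeks. GATA6 had 74.6, 51.1, 89.5 and 83.5 CPM in 7-week valves and 101, 98.8, 111 and 85.5 CPM in control valves. It ranged from 93.8 to 98.5 CPM at 2 weeks and from 89.6 to 112 CPM at 4 weeks. The 7-week valves lay below all valves of 2 and of 4 weeks but overlapped the controls, with a log2 change of -0.44 ± 0.15 relative to controls (adjusted p = 0.0796). DESeq2 called this difference (-0.43, adjusted p = 0.0458). HAND2 had 41.4, 38.3, 57.3 and 48.4 CPM in 7-week valves and 50.2, 60.1, 67.5 and 60.8 CPM in control valves, with a log2 change of -0.39 ± 0.16 (adjusted p = 0.144).

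NFATC1, the endocardial calcineurin target, had 28.3, 26.01, 27.9 and 39.6 CPM in 7-week valves, against 34.3, 32.3, 34.8 and 32.98 CPM in control valves. It had 41.6, 39.8, 34.2 and 41.4 CPM at 2 weeks and 40.7, 33.1, 44.4 and 32.5 CPM at 4 weeks. The fourth 7-week valve lay above all controls and the other three below them, and the log2 change was -0.15 ± 0.15 (adjusted p = 0.559). Without that library NFATC1 was lower at 7 weeks than at 2 weeks (-0.50, adjusted p = 0.0353), and with it the value was -0.35 ± 0.15 (adjusted p = 0.0982).

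TCF21 and MEOX1, the fibroblast-associated factors, had overlapping groups throughout. TCF21 ranged from 10.3 to 15.2 CPM at 7 weeks, 6.17 to 23.1 CPM at 4 weeks and 4.26 to 12.7 CPM at 2 weeks, against 7.92 to 15.1 CPM in controls. MEOX1 ranged from 9.93 to 19.8 CPM at 7 weeks, 13.4 to 26.8 CPM at 4 weeks and 13.9 to 32.8 CPM at 2 weeks, against 12.1 to 18.9 CPM in controls. The largest of their changes relative to controls was that of MEOX1 at 2 weeks, 0.67 ± 0.26 on the log2 scale (adjusted p = 0.205). At 7 weeks relative to 2 weeks MEOX1 stood at -0.70 ± 0.26 (adjusted p = 0.0589), and it passed without 2-week valve 1, the lowest of its group (-0.89, adjusted p = 0.0263).

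In the aorta, 0 of 10 factors passed with 2 diet and 3 control libraries, where 0.159% of 14435 genes did. At an unadjusted p below 0.05 there were 3 of 10 (12.2% of genes), namely TBX5, NFATC1 and GATA6, and DESeq2 called 2, TBX5 and NFATC1. TBX5 had 3.07 and 4.77 CPM in diet aortas, on 48 and 75 counts, against 0.174, 0.248 and 0.0810 CPM in control aortas, on 2, 4 and 1 counts. The summed counts gave a ratio of 22.4 with an exact interval of 10.6 to 56.9, and the test a log2 change of 4.49 ± 0.49 (adjusted p = 0.0510). Over the alternative fits this adjusted p ranged from 3.47e-06 to 0.623.

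Atrial muscle markers moved with TBX5 in the aorta. They took 0.0108% and 0.0116% of counts in diet aortas, against 8.69e-05% to 0.000199% in control aortas, and 4 of 5 were higher at the threshold. MYL7, SLN and MYBPHL, which are atrial muscle genes, were each at 0 counts in at least 1 control aorta. The part of these markers in the TBX5 difference was not tested. Ventricular markers did not differ at the threshold (0 of 10), at 0.0569% and 0.0585% in diet and 0.0414% to 0.0651% in control aortas.

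NFATC1 had 51.9 and 48.8 CPM in diet aortas, against 33.5, 31.8 and 34.7 CPM in control aortas, without overlap. The log2 change was 0.64 ± 0.11 (adjusted p = 0.112). GATA6 had 109 and 114 CPM in diet aortas, against 81.1, 87.5 and 97.7 CPM in control aortas (0.37 ± 0.13, adjusted p = 0.359). OSR1 had 355 and 287 CPM in diet aortas, against 170.1, 334 and 150.3 CPM in control aortas, and the groups overlapped (0.62 ± 0.34, adjusted p = 0.509). Control aorta 2 set that overlap, and it was also the highest control at TBX20 and GATA4. Without control aorta 2, OSR1 stood at 1.04 (adjusted p = 0.0396), TBX20 at 2.72 (adjusted p = 0.0277) and TBX5 at 4.89 (adjusted p = 0.0351). The share of all genes that passed without this library is not given here, and the share given above for aorta belongs to the fit of all its libraries. RARB had 6.14 and 6.62 CPM in diet aortas, against 7.73, 7.88 and 7.46 CPM in control aortas, with a log2 change of -0.22 ± 0.17 (adjusted p = 0.611). TBX20 had 12.1 and 13.9 CPM and GATA4 9.02 and 9.55 CPM in diet aortas, within the range of their controls given above, with log2 changes of 0.65 ± 0.99 and 0.29 ± 0.70 in that order. For HAND2, TCF21 and MEOX1 the log2 changes were -0.03 ± 0.10, -0.42 ± 0.63 and 0.21 ± 0.29.

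In the myocardium, 0 of the 9 factors tested passed, where 0.0848% of 14151 genes did. At an unadjusted p below 0.05 there was 1 of 9, HAND2 (8.85% of genes), and DESeq2 called 0. OSR1 was filtered out, with 3, 15 and 13 counts in diet and 5, 5 and 5 counts in control libraries. HAND2 had 28.5, 45.3 and 30.8 CPM in diet myocardium, against 57.3, 66.3 and 67.5 CPM in control myocardium, without overlap. Its log2 change was -0.75 ± 0.19 (adjusted p = 0.240). RARB had 4.91, 11.6 and 11.02 CPM in diet myocardium, against 13.8, 11.95 and 17.3 CPM in control myocardium, also without overlap (-0.54 ± 0.28, adjusted p = 0.674). Below all controls without overlap were 2 of 10 factors, where 11.4% of genes were, and above them 0 of 10, where 3.73% were.

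The chamber factors did not pass the test in myocardium. TBX20 averaged 141 ± 69.3 CPM in diet and 139.7 ± 75.8 CPM in control myocardium, TBX5 averaged 27.7 ± 5.14 CPM in diet and 31.4 ± 9.17 CPM in control myocardium, and GATA4 averaged 86.9 ± 16.8 CPM in diet and 91.1 ± 40.2 CPM in control myocardium (SD, n = 3 each). Their log2 changes were 0.06 ± 0.52 for TBX20, -0.09 ± 0.28 for TBX5 and 0.01 ± 0.39 for GATA4. GATA6 stood at 0.54 ± 0.35 (adjusted p = 0.789) and MEOX1 at 0.66 ± 0.42 (adjusted p = 0.781). TCF21 had 4.21, 5.57 and 3.17 CPM in diet myocardium, against 4.80, 4.10 and 8.46 CPM in control myocardium (-0.27 ± 0.32, adjusted p = 0.925). NFATC1 had 28.2, 33.1 and 36.4 CPM in diet myocardium, against 33.5, 35.7 and 26.4 CPM in control myocardium (0.14 ± 0.21, adjusted p = 0.941), and both of these factors overlapped between the groups. Control myocardium 3 was the lowest library of its group at TBX20, TBX5, GATA4, GATA6 and NFATC1.

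The diet effect on OSR1 was lower in 7-week valve than in myocardium in a joint fit that treats the libraries as independent, although 5 animals gave both tissues. The difference of the log2 changes was -3.31 ± 0.77 (adjusted p = 0.0375), where 1 of 10 factors and 0.95% of 17161 genes passed. With the animal as a block it did not pass (-3.21 ± 1.22, adjusted p = 0.164), nor with the replicate block (-3.29 ± 0.81, adjusted p = 0.0785). It rests on 3 to 15 counts per myocardium library, and its adjusted p also rose above the threshold when any of 10 single libraries was left out, up to 0.144 without diet myocardium 2, where the difference was -2.91. Between valve, as the mean of the 3 durations, and aorta, 0 of 10 factors passed, where 0.0175% of genes did, with 4 of 10 at an unadjusted p below 0.05 (8.25% of genes) and 0 by DESeq2. The differences there were -1.22 ± 0.52 for OSR1, -0.65 ± 0.29 for RARB, -3.82 ± 1.52 for TBX5 and -0.67 ± 0.24 for NFATC1. Because this contrast averages the 3 durations, the 7-week change by itself was not tested against that of the aorta. An effect past the threshold in 7-week valve and not in aorta is thus neither shown to differ between them nor shown to be alike.

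Relatives of these factors in 7-week valves, relative to controls, changed in both directions. Of 19 family relatives tested, 2 rose and 1 fell, where 7.79% of all genes passed. OSR2, the paralogue of OSR1, fell by 1.17 ± 0.33 on the log2 scale (adjusted p = 0.0396). RARA, the retinoic acid receptor alpha gene, rose by 0.78 ± 0.15 (adjusted p = 0.00864), opposite to RARB, and it had also risen at 4 weeks (0.78 ± 0.15, adjusted p = 0.0195). NFATC2, a lymphocyte relative of NFATC1, rose by 1.23 ± 0.27 (adjusted p = 0.0143).

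Genes of retinoic acid handling showed 1 rise and 2 falls among 14 tested at 7 weeks, where 7.79% of all genes passed and 2.6% were lower. RARA was the rise. CYP26B1, listed as LOC100341926, which degrades retinoic acid, fell by 0.92 ± 0.23 on the log2 scale (adjusted p = 0.0253), and ALDH1A1, which makes it, fell by 0.87 ± 0.17 (adjusted p = 0.0101). The median over the list was -0.01, as over all genes. Of 13 genes of calcineurin and NFAT signalling, set against the same shares, 1 rose and 1 fell: NFATC2 and CABIN1, a calcineurin inhibitor that fell by 0.80 ± 0.21 (adjusted p = 0.0293).

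Of 15 other heart muscle factors tested, 0 rose and 2 fell at 7 weeks, where 2.6% of all genes were lower and 7.79% passed in either direction. MYOCD, the coactivator of smooth and cardiac muscle genes, fell by 1.19 ± 0.29 on the log2 scale (adjusted p = 0.0256), and ZFPM2, the partner of GATA4 also called FOG2, fell by 0.82 ± 0.20 (adjusted p = 0.0264). Of 17 valve mesenchyme factors, 1 rose and 0 fell, a share near that of all genes: SNAI1, a factor of mesenchymal transition, at 1.89 ± 0.51 (adjusted p = 0.0365). Of 12 endocardial and endothelial factors, HEY2, a NOTCH target, fell by 1.39 ± 0.26 (adjusted p = 0.00792) and KLF2, a shear-responsive factor, rose by 0.63 ± 0.18 (adjusted p = 0.0430).

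Known target genes in other settings are set against the 7.79% of all genes that passed at 7 weeks. Of 6 tested osteoclast genes that NFATC1 drives in bone, 2 rose at 7 weeks: MMP9, a matrix protease, by 3.77 ± 0.92 and ATP6V0D2, a proton pump subunit, by 2.96 ± 0.70 on the log2 scale (adjusted p = 0.0241 and 0.0207). Macrophage markers rose in the same valves, and their part in these 2 rises was not tested. Of 11 cardiac genes regulated by GATA and T-box factors, 4 rose and 0 fell: NPPA by 9.65 ± 1.72, BMP10 by 7.79 ± 1.86, MYL4 by 7.09 ± 1.72 and MYL7 by 5.599 ± 1.56 (adjusted p from 0.00686 to 0.0404). NPPA, MYL4 and MYL7 are also in the atrial marker list, and all 4 are genes of atrial muscle.

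**Figure D5:**
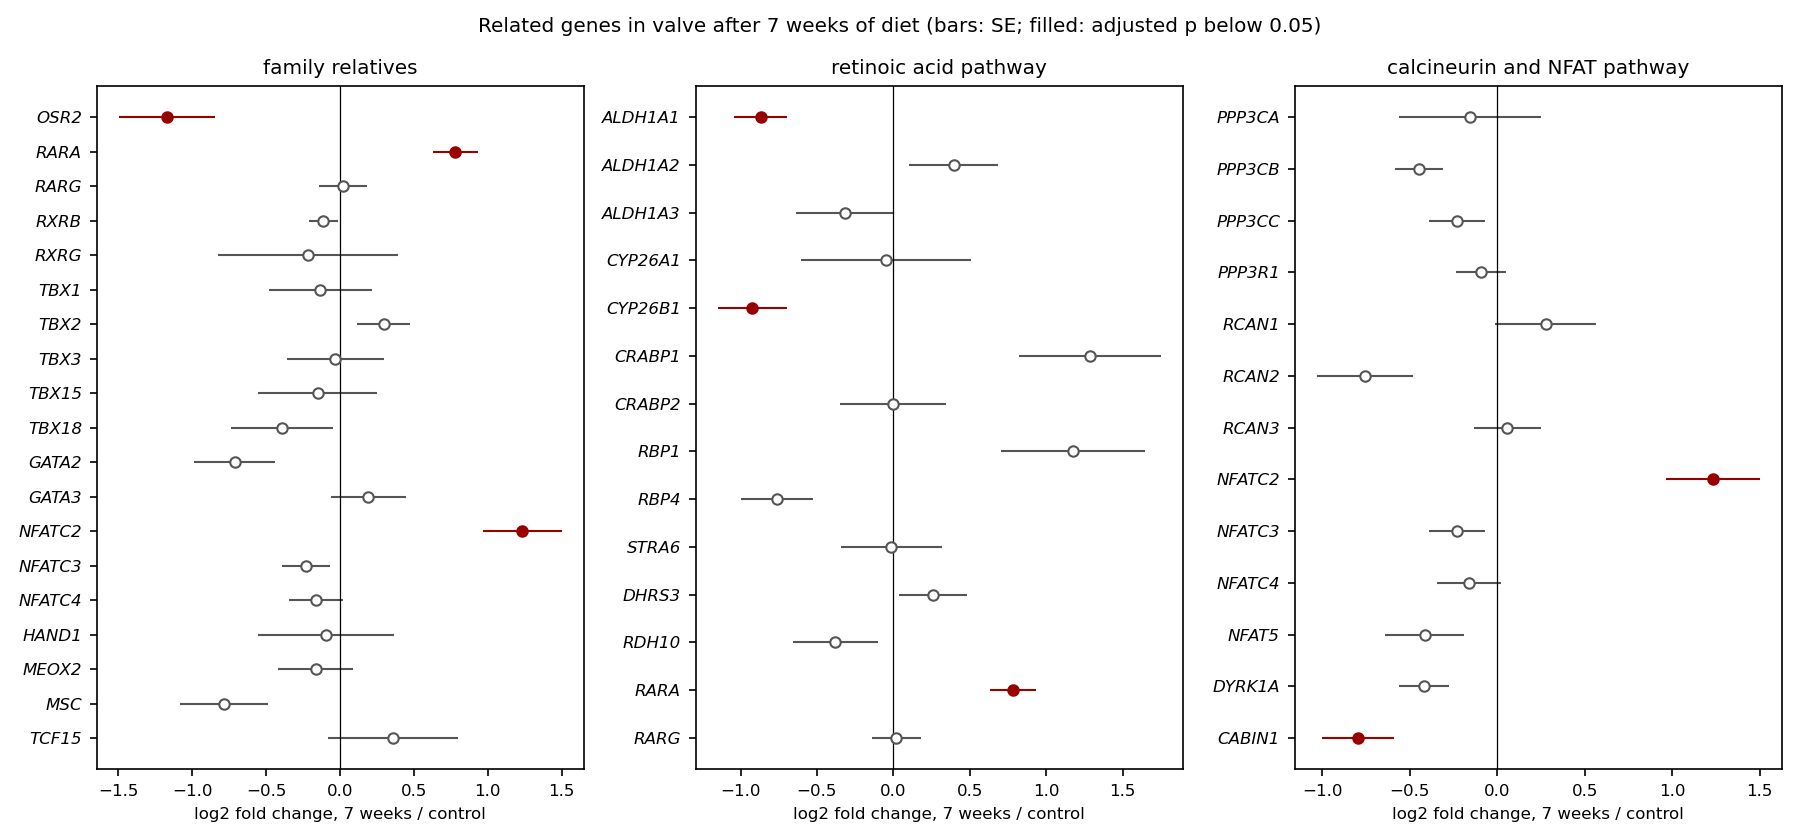
Log2 fold change at 7 weeks of diet relative to control valves for the tested family relatives, retinoic acid genes and calcineurin and NFAT genes, with bars for the standard error and filled points for adjusted p below 0.05. OSR2 stands at -1.17 and RARA at 0.78, and NFATC2 is the filled point farthest to the right at 1.23.

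Genes whose level followed a factor most closely were listed for each over the 16 valve libraries, by Spearman's rho of CPM among 12004 genes with a mean of at least 1 CPM. The points share the 4 groups, the library depth and the tissue mix, so these values are descriptions. For OSR1 they were NPAS4 and SLMAP (rho of 0.976 each) and LIMS2 (0.974), and for RARB they were AASS (0.932), TNIK (0.865) and DNAJC27 (0.856). For TBX5 they were RGS6 (0.95), LHFPL3 (0.944) and RASD2 (0.932), and for TBX20 SLC4A3 (0.938), TMOD1 (0.918) and KLHL33 (0.906). The highest value was 0.859 for GATA4 (CARNS1), 0.847 for GATA6 (VPS45), 0.838 for MEOX1 (AQP8), 0.806 for TCF21 (GALNT14), 0.785 for HAND2 (CELF6) and 0.712 for NFATC1 (LAMC1 and SLC26A6).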

How the data were processed

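Expected counts per gene and library, reads assigned by RSEM, were deposited by the authors in 1 table for each tissue. The submitters' processing notes name STAR 2.7.8a and RSEM 1.3.3, and also edgeR 3.42.4, FastQC 0.11.9 and Trim Galore 0.6.6. Libraries were single-end and made with a strand-marking kit, per the labels' protocols. No label or header names the genome build, the annotation or the strand setting of the counting, so no coordinates are printed and reads of antisense genes cannot be told apart. A second valve table, from which the authors had removed 346 genes, lost none of the 10 factors and served as an alternative.

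The deposited counts (10.1% of valve values not whole) were rounded. Each tissue was fitted in R 4.3.3 with edgeR 4.0.16, after filterByExpr (groups as given, minimum count 10, minimum total 15) and TMM scaling. The test was the two-sided quasi-likelihood F test. P-values were adjusted by Benjamini-Hochberg over every gene of a fit, and the threshold was 0.05. All 16 valve libraries entered 1 fit. Comparisons between tissues, and of diet effects between tissues, used a joint fit of all 27 libraries. Fold changes are log2, the first-named group over the second, each beside a standard error (SE). For edgeR the SE was computed as the absolute change over the square root of the F statistic, so it is approximate. Marker scores are means of log2(CPM + 1). Relations with scores were tested with 100000 permutations within groups. Exact intervals of count ratios are binomial at 95%, and they cover counting error only, since reads without molecular identifiers are not independent molecules. The procedure was checked on simulated counts with known changes.

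Groups followed the labels. Nothing says more of replicates than their animal numbers, and for 6 animals 2 libraries exist that the fits treated as independent. Replicate numbers did not pair libraries. Among 34 pairs of libraries of 1 group, at most 1.78% of genes had equal counts, and none was treated as a duplicate. Alternatives were DESeq2 1.42.0, RLE and upper-quartile scaling, no filter or a filter of 1 CPM, each library left out, the replicate number or the animal as a block (the animal with limma 3.58.1), the groups compared alone, the reduced valve table and muscle scores as covariates. Added after the data were seen were both muscle scores together and 2 valve libraries left out together.

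The factors, gene lists and alternatives were chosen with earlier results of these data known. Named genes are the 10 factors in every comparison, and at most 4 genes past the threshold per list, by size of change. The 3 genes most alike were taken per factor. Of 213 list entries, 190 were matched by symbol and 8 by gene number, and 15 were absent. Gene numbers were matched in the RefSeq gene table of assembly mOryCun1.1, used for names only.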

Additional observations from a re-analysis of the deposited data

Results flagged for a closer look

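In 6 of 40 valve groups (10 factors in 4 groups of 4 libraries) a single library stood far from the other 3, where chance gives about 1 in 20 groups. OSR1 in 2-week valve 1 had 321 CPM, against 208 to 218 CPM in the others of its group. RARB in 4-week valve 4 had 8.06 CPM, against 6.35 to 6.59 CPM. TBX5 in 2-week valve 2 had 24.8 CPM, against 2.41 to 4.49 CPM. NFATC1 in 7-week valve 4 had 39.6 CPM, against 26.01 to 28.3 CPM. HAND2 in 4-week valve 1 had 44.5 CPM, against 54.6 to 55.5 CPM. MEOX1 in 4-week valve 2 had 26.8 CPM, against 13.4 to 15.7 CPM.

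The diet effect on OSR1 was lower in 7-week valve than in myocardium by a test of the difference itself, -3.31 on the log2 scale (edgeR, adjusted p = 0.0375), with 3 to 15 counts in each myocardium library. The call did not hold with the animal as a block (limma, adjusted p = 0.164), with the replicate block (adjusted p = 0.0785) or in 10 of the 14 fits that left out 1 library.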

How the results depend on the processing

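Of the values of single factors under the alternatives, 2271 kept their side of the threshold, 50 lost a call, 27 gained one and 0 called changes turned direction. In 7-week valves relative to controls, 2 factors were called under every alternative except the atrial score (0) and both muscle scores (0) as covariates and DESeq2 (3). DESeq2 called 2197 of 24179 genes there. With both scores OSR1 stood at -2.29 (adjusted p = 0.0952) and RARB at -1.48 (adjusted p = 0.0797). Over leave-one-out fits the count was 2 to 2. In the 2-week valves relative to controls DESeq2 called 1 (RARB), among 950 of 24179 genes. The atrial covariate gave 2 (TBX5 at -2.31 and GATA4 at -1.17), where 884 of 15973 genes passed. Both muscle scores together gave 0, where 1 of 15973 genes passed. For 4 weeks relative to 2 weeks the count was 0 with the 2 groups alone, with the ventricular score, the atrial score or both, and with 4-week valve 1 and 7-week valve 2 left out together, and 0 to 1 over leave-one-out fits. For 7 weeks relative to 4 weeks DESeq2 called 1, and leave-one-out fits 0 to 1. For 7 weeks relative to 2 weeks the count was 1 with no filter, with the 2 groups alone, with the ventricular score and with the atrial score, and 0 with both scores, and 1 to 2 over leave-one-out fits. In the aorta DESeq2 called 2, and no filter and the filter of 1 CPM 1 each (TBX5), with 0 to 3 over leave-one-out fits. For control valve over control aorta the limma fit with the animal as a block gave 3 (TBX5 and MEOX1 were lost), and for the difference between 7-week valve and myocardium it gave 0. Leave-one-out fits gave 3 to 8 for control valve over control myocardium and 0 to 1 for that difference. Some of these fits leave 1 diet aorta, which is then assumed to vary like the other libraries. Counts of factors under an alternative, where no share of all genes is given beside them, are not results about these factors. The causes were not tested.

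Same replicate numbers did not pair the libraries: over 24 pairs of valves with the same number, deviations from the group means correlated at -0.433 to 0.166, with 4 pairs above 0.1. With the replicate block the count became 0 for 4 weeks relative to 2 weeks, 1 for 7 weeks relative to 2 weeks, 1 in the aorta (TBX5) and 0 for the difference between 7-week valve and myocardium, and no other comparison changed its count. Depth limits OSR1 in myocardium and TBX5 in control aorta, where 3 to 15 and 1 to 4 counts were found.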
